A study of Homo sapiens with 8 samples.

Results

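MET and 9 other receptor tyrosine kinases (EGFR, ERBB2, ERBB3, AXL, IGF1R, INSR, FGFR1, EPHA2 and DDR1) were read on 8 two-colour expression arrays of human cancer cell lines. They are 10 of the 43317 genes on the array and are read by 18 of its 58201 probes. The 10 receptors were selected by name, with their ratios and mock levels on these arrays already known, so every value below is a description of these arrays. On each array RNA of mock cells, which were not transfected, was labelled with Cy3, and RNA of treated cells of the same line was labelled with Cy5. The treated cells were PC3 prostate cancer cells given bisamide, a small-molecule inhibitor of the protein pirin, for 24 h or for 48 h, PC3 cells given miR-125b-1-3p, C4-2 prostate cancer cells given miR-199-3p, 786-O renal cancer cells given miR-532-5p or miR-532-3p, and T24 bladder cancer cells given miR-140-5p or miR-140-3p. Each of these 8 groups was 1 array, so no p-value could be computed, and dye and treatment cannot be told apart because no array had the dyes swapped. The mock cells of the miRNA arrays were not transfected, so transfection and the miRNA cannot be told apart either. All arrays were on the same slide and read in the same scan.

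A receptor tyrosine kinase spans the plasma membrane. A ligand outside the cell brings receptors together, their kinase domains phosphorylate tyrosines inside the cell, and adaptor proteins that bind those tyrosines pass the signal to the RAS, MEK and ERK kinases and to PI3K and AKT. MET is the receptor for hepatocyte growth factor and is known for its roles in cell motility and invasion. EGFR, ERBB2 and ERBB3 are members of the epidermal growth factor receptor family. IGF1R and INSR bind the insulin-like growth factors and insulin, AXL binds GAS6, FGFR1 binds fibroblast growth factors, EPHA2 binds ephrins on neighbouring cells, and DDR1 binds collagen. A miRNA directs the silencing complex to messenger RNAs that pair with its seed, bases 2 to 8 from its 5′ end.

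The mature sequences of the 6 miRNAs, as RefSeq lists them on GRCh38.p14, show which seeds were introduced (seed in capitals). The label miR-199-3p names neither of the a and b forms, whose 3p sequences are identical in RefSeq, and the sequence shown for it is that of hsa-miR-199a-3p.
miR-199-3p: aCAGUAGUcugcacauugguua
miR-125b-1-3p: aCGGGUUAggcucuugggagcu
miR-532-5p: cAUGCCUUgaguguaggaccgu
miR-532-3p: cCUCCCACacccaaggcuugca
miR-140-5p: cAGUGGUUuuacccuaugguag
miR-140-3p: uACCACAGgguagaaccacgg

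No 2 of the 6 miRNAs shared a seed. Both strands of miR-532 come from 1 hairpin on chromosome X, and both strands of miR-140 from 1 on chromosome 16.

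Markers of the labelled tissues were read in the mock channels before the receptors. The prostate markers KLK3, KLK2, TMPRSS2 and HOXB13 were all above background in C4-2. KLK3, the gene of prostate-specific antigen, had a raw signal of 13592 in C4-2 and was not above background in PC3, 786-O or T24. HOXB13 was well above background in both prostate lines (678 in C4-2 and 7455 to 9538 in PC3), and at a lower signal in T24 (74.0 to 75.4). Of 5 renal markers, PAX8, PAX2, CDH6 and CDH16 were above background in 786-O and CA9 was not. PAX8 and PAX2 were also above background in T24, at raw signals of 390 to 423 and 551 to 619 (235 to 239 and 112 to 124 in 786-O). After normalization between arrays, the log2 level of PAX8 was lower in T24 (8.56 and 8.62) than in 786-O (8.72 and 8.76). That of PAX2 was higher in T24 (9.02 and 9.15 against 7.84 and 7.73). In T24, 0 of 5 urothelial markers (UPK1B, UPK2, UPK3A, GATA3 and KRT20) were above background. CDH16 was above background in T24 too (28.0 to 30.2, against 37.1 to 39.9 in 786-O), and CDH6 was not. The cells labelled T24 thus gave no reading of the urothelial markers, and PAX8, PAX2 and CDH16 were read in them as in 786-O. Mock signals correlated at 0.990 to 0.999 between arrays of 1 line and at 0.873 to 0.929 between lines.

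MET had by far the largest difference among the receptors. In 786-O cells given miR-532-3p its log2 ratio of treated over mock was −1.65, a 3.14-fold lower level. In the same line given the other strand, miR-532-5p, the log2 ratio was −0.02. The mock signal of MET was 3248 on the miR-532-5p array and 3269 on the miR-532-3p array (mean spot signal in scanner units). The treated signal was 3082 with miR-532-5p and 1576 with miR-532-3p. The 2 mock readings were thus nearly equal, and the arrays differed in the treated channel.

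The log2 ratio of MET was −0.17 with bisamide for 24 h, −0.19 with bisamide for 48 h and −0.15 with miR-125b-1-3p, all in PC3. In T24 it was −0.50 under miR-140-5p, against −0.38 under the 3p strand. MET was therefore below 0 on 7 of the 7 arrays that read it in both channels, with the miR-532-3p array far below the others. That direction depended on the scaling: with each array centred on its median in place of loess, MET was below 0 on 2 of the 7 arrays, both in 786-O. The raw signals show where the 2 scalings part. In PC3 the treated channel read 11783, 12748 and 10964 and the mock channel 6440, 7054 and 6362 in the order bisamide 24 h, bisamide 48 h and miR-125b-1-3p. Genes above background were brighter in Cy5 on these arrays as a whole, with a median log2 ratio of 0.45, 0.44 and 0.42 under median centring and of 0.01, 0.01 and 0.02 under loess.

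**Figure D1:**
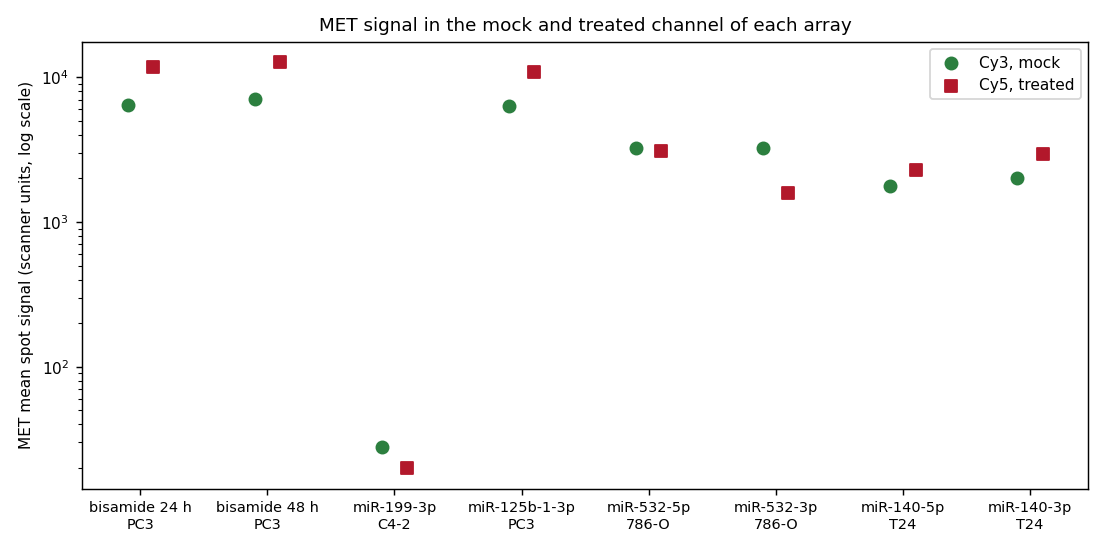
Mean spot signal of MET in scanner units (log axis) in the mock channel (Cy3, circles) and the treated channel (Cy5, squares) of each of the 8 arrays, before background correction and normalization. The treated signal was well below the mock signal with miR-532-3p in 786-O (1576 against 3269), and both signals were near background in C4-2 (19.8 and 27.9).

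With miR-199-3p in C4-2, MET was well above background in the mock channel alone, at a raw signal of 27.9 against 19.8 in the treated channel. The bound this gives, 1.09-fold lower in the treated cells, equals the fitted log2 ratio of −0.12, as the dim treated signal itself was used. The scanner software's own ratio gave a log2 value of −1.40 for that spot, at a signal where a difference of a few scanner units decides the ratio, so no size is drawn from it.

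The value of MET with miR-532-3p was the only 1 of the 74 receptor values read in both channels that passed a log2 ratio of 1.5 in either direction. The study's own cut was a log2 ratio below −1.5, together with a predicted binding site, for miRNAs not used on these arrays. Over all 8 arrays 0.0518% of gene values (72 of 138908) were below −1.5. On the miR-532-3p array MET ranked 13 from the lowest of 15442 genes. It ranked 28 with median centring (log2 ratio −1.04, not past 1.5) and 87 by the scanner software's ratio (−1.68), which has no offset. The log2 mock levels of a gene on the 3 PC3 arrays had a pooled SD of 0.15 over 17772 genes. That spread is of Cy3 levels in PC3 and holds no Cy5 reading, so it does not give the error of a ratio in 786-O.

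MET is read by 1 probe of 60 bases at chr7:116438290-116438349 on the plus strand of GRCh37, which the files assign to transcript NM_000245. Whether the probe lies in coding or untranslated sequence was not looked up, since no GRCh37 annotation was used here. The probe holds 7 letters that pair with the seed of miR-532-3p, GTGGGAG, at chr7:116438305-116438311. The 27 bases around them are shown because they are the only such match among the 18 probes of the 10 receptors for the seed of any of the 6 miRNAs (match in capitals, sense strand).
MET, chr7:116438295-116438321: tggacagattGTGGGAGtaagtgattc

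These letters, searched on the sense strand alone, are found in 239 of the 58201 probes, or 0.411%. On the miR-532-3p array, 60 genes whose representing probe holds them were read in both channels. Of these, 9 (15%) had a log2 ratio below −0.5 and 0 had one above 0.5, beside 3.83% and 1.71% of all 15442 genes. MET itself is among the 9. For the other seeds, on their own arrays, the share below −0.5 ran from 0% (0 of 5 genes, miR-125b-1-3p) to 25% (17 of 68, miR-532-5p). Whether the letters bear on the ratio of MET was not tested. The match describes the letters of the probe, and the rest of the MET transcript was not searched.

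Over the other receptors too, a log2 ratio of 0.5 in size was taken as the call. Of the 74 values, 5 were below −0.5 and 2 were above 0.5. With median centring 2 were lower and 33 were higher, as the median of all genes lay between −0.03 and 0.45 on those arrays. On the lower side were MET, EGFR and DDR1 in T24 given miR-140-5p, FGFR1 in 786-O given miR-532-5p and MET in 786-O given the 3p strand. On the higher side were IGF1R in 786-O given miR-532-3p and INSR in PC3 given miR-125b-1-3p. MET with miR-140-5p (−0.50) and INSR with miR-125b-1-3p (0.50) lay at the call size itself.

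**Figure D2:**
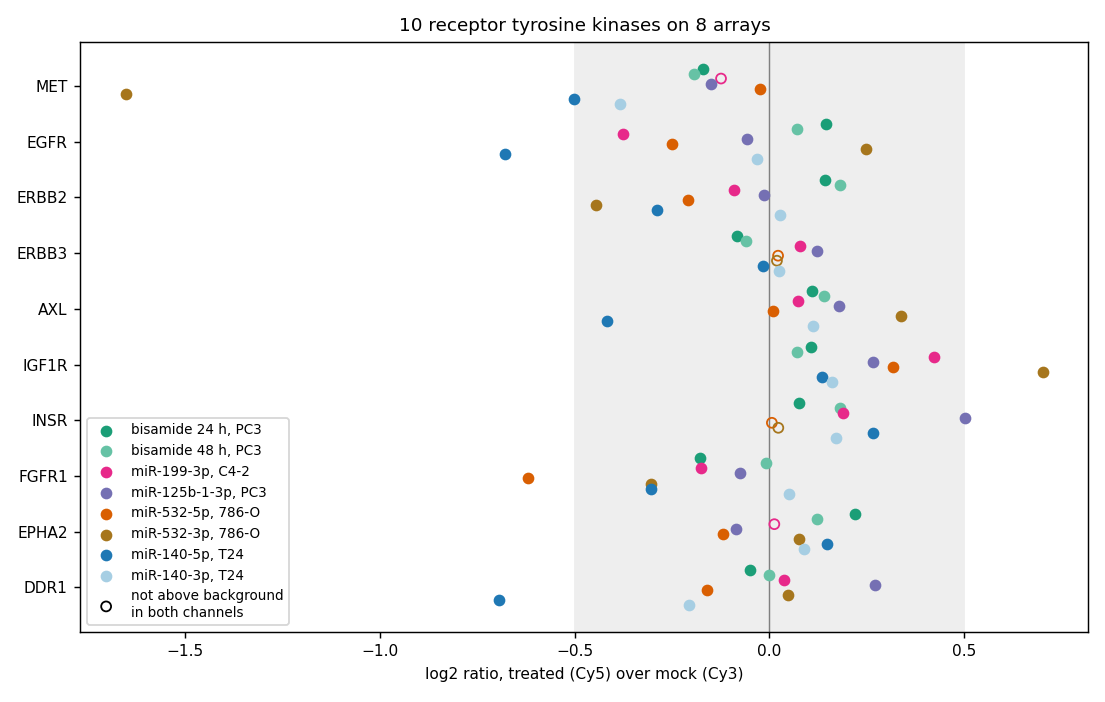
Log2 ratio of treated (Cy5) over mock (Cy3) of the 10 receptors, with 1 point for each of the 8 arrays; the grey band spans −0.5 to 0.5 and open points were not well above background in both channels. MET with miR-532-3p stands apart at −1.65, and 67 of the 74 filled points lie inside the band.

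By array, the receptors are set beside all genes as follows. With bisamide for 24 h, 0 of 10 receptors were below −0.5 or above 0.5, beside 0.411% and 1.05% of 19241 genes. With bisamide for 48 h, 0 of 10 passed either size, beside 0.883% and 0.91% of 19020 genes. Their values at the 2 times differed by 0.17 at most (FGFR1), and the median over receptors was 0.09 at 24 h and 0.07 at 48 h against 0.01 for all genes at both times.

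With miR-125b-1-3p, 0 of 10 were lower and 1 was higher, beside 0.883% and 1.77% of 18693 genes (with an offset of 0, IGF1R was 0.52 too). With miR-199-3p in C4-2, 0 of the 8 receptors read in both channels were past either size, beside 2.74% and 1.75% of 15686 genes. That 0 rests on the offset, since with an offset of 0 FGFR1 was −0.78, EGFR −0.52 and IGF1R 0.81 there. With miR-532-5p, 1 of 8 was lower and 0 were higher, beside 3.67% and 3.61% of 15669 genes. With an offset of 0, EGFR (−0.51), DDR1 (−0.53) and IGF1R (0.53) passed the call there too. With miR-532-3p, 1 of 8 was lower and 1 was higher, beside the 3.83% and 1.71% given above. With an offset of 0, ERBB2 (−0.73) was past the call as well on that array.

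The T24 arrays differed in how many receptors passed the call. With miR-140-5p, 3 of 10 receptors were lower and 0 were higher, beside 2.89% and 1.74% of 17624 genes, and under the 3p strand 0 of 10 passed either size, beside 1.1% and 0.992% of 17533 genes. The median over the 10 receptors was −0.30 for the 5p strand and 0.04 for the 3p strand, against 0.01 and 0.02 for all genes. With median centring both medians were above 0, at 0.26 and 0.60, while the medians of all genes were 0.35 and 0.45. Under the 5p strand EGFR (−0.25), DDR1 (−0.35) and MET (0.32) were then not below −0.5. AXL, FGFR1 and ERBB2 were then above 0, and INSR (0.64) and EPHA2 (0.68) above 0.5.

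**Figure D3:**
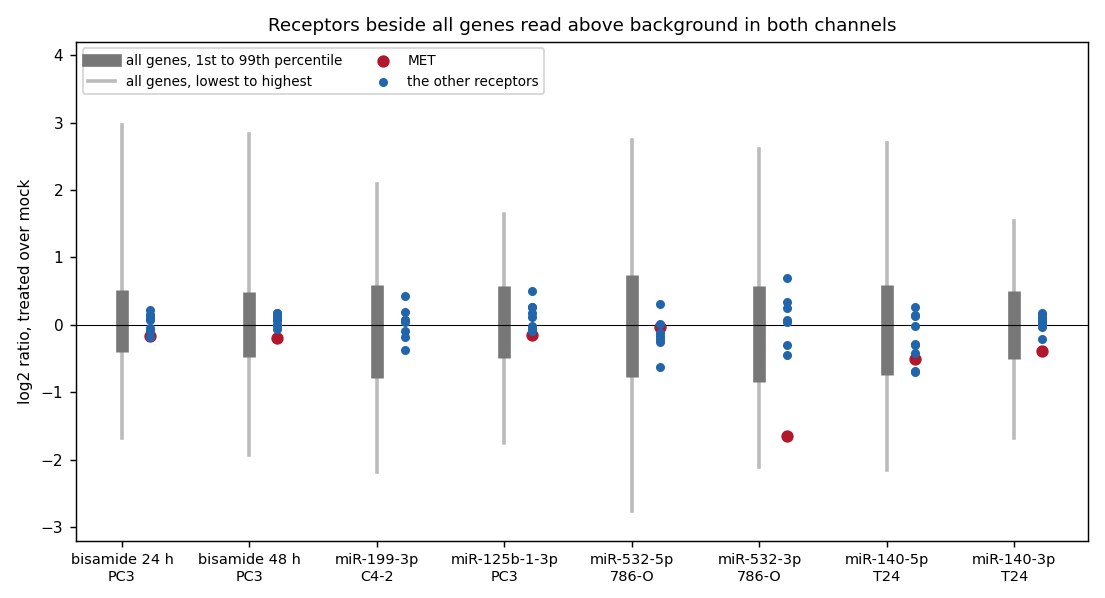
Log2 ratio of each receptor well above background in both channels (points; MET larger and red) beside the range of all such genes on the same array (thick bar, 1st to 99th percentile; thin bar, lowest to highest gene). MET with miR-532-3p (−1.65) lies below the 1st percentile of its array (−0.85), and the values of EGFR (−0.68) and DDR1 (−0.69) in T24 given miR-140-5p lie just above theirs (−0.74), while IGF1R with miR-532-3p (0.70) lies above the 99th percentile of its array (0.58).

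In the epidermal growth factor receptor family, EGFR had log2 ratios of 0.15 and 0.07 with bisamide at 24 h and 48 h and −0.06 with miR-125b-1-3p in PC3. It was −0.38 in C4-2 given miR-199-3p. In 786-O it was −0.25 for the 5p strand of miR-532 and 0.25 for the 3p strand, and in T24 it was −0.68 for the 5p strand of miR-140 and −0.03 for the 3p strand. The miR-140-5p value was the lowest, at a treated signal of 140 and mock signal of 172 (with median centring, −0.25 against −0.31 for miR-532-5p). It comes from the probe at chr7:55274841-55274900 (GRCh37, as all coordinates of probes here), assigned to NM_005228, the full-length transcript. The probes assigned to NM_201283 and NM_201282, which encode truncated forms of the receptor, read −0.04 and −0.06 on that array, at mock signals of 51.9 and 30.4. The 3 EGFR probes are assigned to different transcripts and the last 2 were dim, so they are not 3 readings of 1 target. Their mean was −0.26.

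ERBB2, which has no known ligand and pairs with the other family members, is read by 1 probe (chr17:37884829-37884888) printed on 10 spots, which gives a repeated reading within each array. Its log2 ratio was 0.14 and 0.18 with bisamide at 24 h and 48 h and −0.01 with miR-125b-1-3p in PC3, and −0.09 in C4-2. In 786-O it was −0.21 for the 5p strand and −0.45 for the 3p strand (−0.73 with an offset of 0, −0.22 with median centring). In T24 it was −0.29 for the 5p strand (0.22 with median centring, beside 0.35 for all genes) and 0.03 for the 3p strand. The SD over the 10 spots was 0.04 to 0.07, which measures the error of reading 1 hybridisation and not the spread between samples. A second ERBB2 probe, assigned to ENST00000584014 and near background at mock signals of 26.1 to 57.9, stayed between −0.13 and 0.08.

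ERBB3, whose own kinase is nearly inactive, was read at low signal and lay between −0.08 and 0.12 on the 6 arrays where it was above background. It was not well above background in either channel in 786-O. Its representing probe (chr12:56479217-56479276) is assigned to NM_001005915, a short form. The probe assigned to the full-length NM_001982 that was above background on 7 arrays ranged from −0.06 to 0.15 over all 8. Neither form was past 0.5 on an array that read it.

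AXL (probe at chr19:41767395-41767454) was above 0 on 7 of 8 arrays, between 0.01 and 0.34. In T24 it was −0.42 with miR-140-5p (0.30 with median centring, beside a median of 0.35 for all genes). Its value with miR-140-3p in the same line was 0.11. IGF1R (chr15:99507366-99507425) was above 0 on all 8 arrays, from 0.07 with bisamide for 48 h to 0.42 in C4-2 and 0.70 in 786-O given miR-532-3p. On the miR-532-3p array it ranked above 99.6% of genes, with a mock signal of 90.1 and a treated signal of 204. IGF1R was above 0 on all 8 arrays with median centring and by the scanner software's ratio too. Subtracting the median over the other 7 arrays leaves values on both sides of 0 by construction. IGF1R was then −0.16 and −0.19 with bisamide at 24 h and 48 h, and −0.13 and −0.10 with miR-140-5p and miR-140-3p.

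INSR (chr19:7112351-7112410, minus strand) was above 0 on all 6 arrays that read it, from 0.08 to 0.50, and was not well above background in either channel in 786-O. By the scanner software's ratio it was above 0 on 5 of the 6. With the median over the other arrays subtracted, it was −0.11 with bisamide for 24 h and −0.01 with miR-140-3p. FGFR1 (chr8:38270470-38270529, minus strand) was −0.62 with miR-532-5p in 786-O, where the 3p strand gave −0.30. In T24 it was −0.30 for the 5p strand (0.19 with median centring, beside 0.35 for all genes) and 0.05 for the 3p strand. It was −0.18 in C4-2 (−0.78 with an offset of 0 and −1.12 by the scanner software's ratio), and −0.18, −0.01 and −0.07 in PC3 in the order bisamide 24 h, bisamide 48 h and miR-125b-1-3p. A second FGFR1 probe, assigned to NM_001174066, gave −0.25 with miR-532-5p, its lowest value on any array. With miR-532-5p FGFR1 had a treated signal of 85.5 against a mock signal of 173.

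EPHA2 (chr1:16451800-16455972, minus strand, the outer ends of a probe of 60 bases) lay between −0.12 and 0.22 on the 7 arrays that read it in both channels, none past 0.5. In C4-2 it was well above background in the treated channel alone, at raw signals of 25.1 (mock) and 23.8 (treated). The bound there, 1.01-fold higher in treated cells, equals the fitted log2 ratio of 0.01. The raw signals lie in the other order, so no direction is drawn from it. DDR1 (chr6:30867378-30867436) in T24 was −0.69 for the 5p strand of miR-140 and −0.21 for the 3p strand, and lay between −0.16 and 0.27 on the other 6 arrays. Its miR-140-5p value was the lowest of the 10 receptors on that array, at a mock signal of 108 and a treated signal of 75.9. The second DDR1 probe was not above background in both channels on any array.

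The 2 pairs of strands gave direct views of 1 line under 2 seeds. Between the 786-O arrays, the log2 ratio with miR-532-5p minus that with miR-532-3p was 1.63 for MET, −0.50 for EGFR, −0.38 for IGF1R, −0.33 for AXL, −0.32 for FGFR1 and 0.24 for ERBB2. MET was thus the receptor with the largest gap between those strands. Between the T24 arrays, miR-140-5p minus miR-140-3p was −0.65 for EGFR, −0.53 for AXL, −0.49 for DDR1, −0.36 for FGFR1 and −0.31 for ERBB2, and −0.12 for MET. These differences have no replicate and were not tested.

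The rest of the pathway was read through gene lists (other receptor tyrosine kinases, ligands, adaptors and downstream kinases, negative regulators, genes that ERK signalling induces, and proteases that process the receptors with their inhibitors). Of 48 other receptor tyrosine kinases, 16 to 26 were read in both channels on an array, and 0 to 3 were below −0.5 and 0 or 1 above 0.5. Over the 8 arrays, 0.411% to 3.83% of all genes were below −0.5 and 0.91% to 3.61% above 0.5. PDGFRB, a platelet-derived growth factor receptor, was below −0.5 on 7 of the 8 arrays, between −0.71 and −1.18, at treated signals of 22.4 to 28.1, close to background. ROR1 was −0.57 in 786-O given miR-532-3p and −0.68 in T24 given miR-140-5p, where LMTK3 was −0.57. With median centring these were −0.35, −0.28 and −0.11. CSF1R, the receptor for macrophage colony-stimulating factor, was 0.94 with miR-532-5p.

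Of 25 ligands, 9 to 18 were read on an array. With miR-532-5p in 786-O, 3 of 13 ligands read were below −0.5, beside 3.67% of all 15669 genes, with a median of −0.06 over the 13. The 3 were EREG (−0.95), NRG1 (−0.86) and AREG (−0.51), which bind receptors of the epidermal growth factor receptor family, while TGFA, of the same family of ligands, was 0.31 there. EREG was −0.56 in 786-O given miR-532-3p (−0.19 with median centring). In T24 given miR-140-5p HBEGF, another ligand of that family, was 0.87, while EFNA1, an ephrin, was −0.63 and FGF2 −0.52, and with median centring these last were −0.12 and −0.22. With miR-125b-1-3p IGF2 was 1.07 and COL1A1, a collagen chain, was 0.65.

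Of 32 adaptors and downstream kinases, 29 to 31 were read on each array and at most 2 were below −0.5, with 0 above 0.5. The shares of all genes were 0.411% to 3.83% and 0.91% to 3.61%. MAP2K1, which encodes the kinase MEK1, was −1.12 with miR-532-3p. The adaptor SHC1 was −0.53 with miR-140-5p (0.30 with median centring, beside a median of 0.35 for all genes). The medians of this list lay within −0.05 and 0.07.

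Among 25 negative regulators, GRB14, an adaptor that binds and inhibits the insulin receptor, was −1.37 in 786-O given miR-532-3p, and in T24 it was −0.82 for the 5p strand and −0.55 for the 3p strand. With median centring these were −0.98, −0.47 and −0.08. ERRFI1, an inhibitor of EGFR family kinases, was 1.11 with bisamide for 24 h and 0.80 with miR-532-5p. The phosphatase PTPRJ was −0.97 with miR-532-5p and 0.63 with miR-125b-1-3p, and PTPRF was −0.65 with miR-199-3p and −0.62 with miR-140-5p. With median centring PTPRF was 0.06 and 0.30 there, beside medians of 0.30 and 0.35 for all genes. GRB10 was 0.73 in 786-O given miR-532-5p. Of the Sprouty proteins, which restrain ERK signalling, SPRY2 was 0.50 in 786-O given miR-532-3p and SPRY4 was 0.71 in T24 given miR-140-5p. CBL, the ubiquitin ligase that marks active receptors for breakdown, was −0.83 with miR-140-3p (−0.35 with median centring).

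Of 10 genes that ERK signalling induces, 8 were read on the miR-532-3p array and 0 passed 0.5 in either direction, with a median of −0.05. On that array 3.83% of all genes were below −0.5 and 1.71% above 0.5. With miR-532-5p CCND1 (cyclin D1) was −0.64, and with miR-199-3p FOS was −1.12 and CCND1 0.52. MYC was −0.51 with bisamide for 48 h and −0.51 and −0.53 in T24 given the 5p and 3p strands. With median centring MYC was 0.32, 0.21 and 0.25, beside medians of 0.44, 0.35 and 0.45 for all genes on those arrays. Of 8 proteases and inhibitors of receptor processing, 1 passed 0.5: SPINT2, an inhibitor of the proteases that activate hepatocyte growth factor, was −0.60 with miR-532-3p (−0.17 with median centring). Beside these counts, the share of all genes below −0.5 was 0.411% to 3.83% and above 0.5 was 0.91% to 3.61% over the 8 arrays. The medians of the 6 lists lay between −0.09 and 0.19, beside at most 0.02 for all genes.

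The genes whose log2 ratios over the 8 arrays were most like those of MET were DDOST (Pearson r = 0.986), CANX (0.985), HNRNPH2 (0.981), PERP (0.981) and CD63 (0.980), of 1209 genes with named symbols above background on all 8 arrays. DDOST, a subunit of the oligosaccharyltransferase of the endoplasmic reticulum, was −1.93 with miR-532-3p and between −0.20 and 0.17 elsewhere. PERP, a desmosome protein, was −1.97, CD63, a tetraspanin, was −1.28, HNRNPH2 was −0.82 and CANX (calnexin) was −0.81 on that array. The likeness rests on that 1 array, where all 5 had their lowest value. The points share a slide and in several cases the line, and MET was not above background in both channels on the C4-2 array.

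The mock channel gives the level of each receptor in the 4 lines without treatment. Levels are compared here only between lines for 1 receptor, as log2 Cy3 signals set to 1 common distribution over the 8 arrays. PC3 was read on 3 arrays, 786-O and T24 on 2 each and C4-2 on 1, so that a spread within the line can be given for PC3 and a range for 786-O and T24. Bulk RNA cannot tell fewer cells from less RNA in a cell.

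C4-2 stood apart from the other 3 lines. MET had a mock level of 12.2 ± 0.11 (SD, n = 3) in PC3, 12.3 in 786-O (range 12.30 to 12.35), 10.8 in T24 (range 10.7 to 10.9) and 5.99 in C4-2. PC3 was 6.23 above C4-2 on the log2 scale, a 75.1-fold difference. The offset of 50 added to each signal narrows such gaps, and without it the difference was 8.46. The order of PC3 and 786-O was not settled, since 786-O was higher by 0.10, less than the spread between PC3 mocks, and PC3 was higher by 1.01 without normalization between arrays.

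AXL had a level of 9.70 ± 0.22 (SD, n = 3) in PC3, 10.2 in 786-O, 9.63 in T24 and 5.99 in C4-2, where its raw signal was 26.9. PC3 was 3.70 above C4-2 for AXL, with an uncertain order among PC3, 786-O and T24: PC3 and T24 differed by 0.07, and 786-O over PC3 by 0.50 turned to PC3 over 786-O by 0.75 without normalization between arrays. EPHA2 was 8.35 ± 0.11 (SD, n = 3) in PC3, 7.81 in T24 and 7.72 in 786-O, and was not well above background in the mock channel of C4-2, which put PC3 at least 5.35-fold higher. MET, AXL and EPHA2 were thus all at or near background in C4-2 and well above it on the 7 arrays of the other lines. FGFR1 too was lowest in C4-2, at 6.19 against 7.06 ± 0.16 (SD, n = 3) in PC3, 7.80 in T24 and 8.30 in 786-O.

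**Figure D4:**
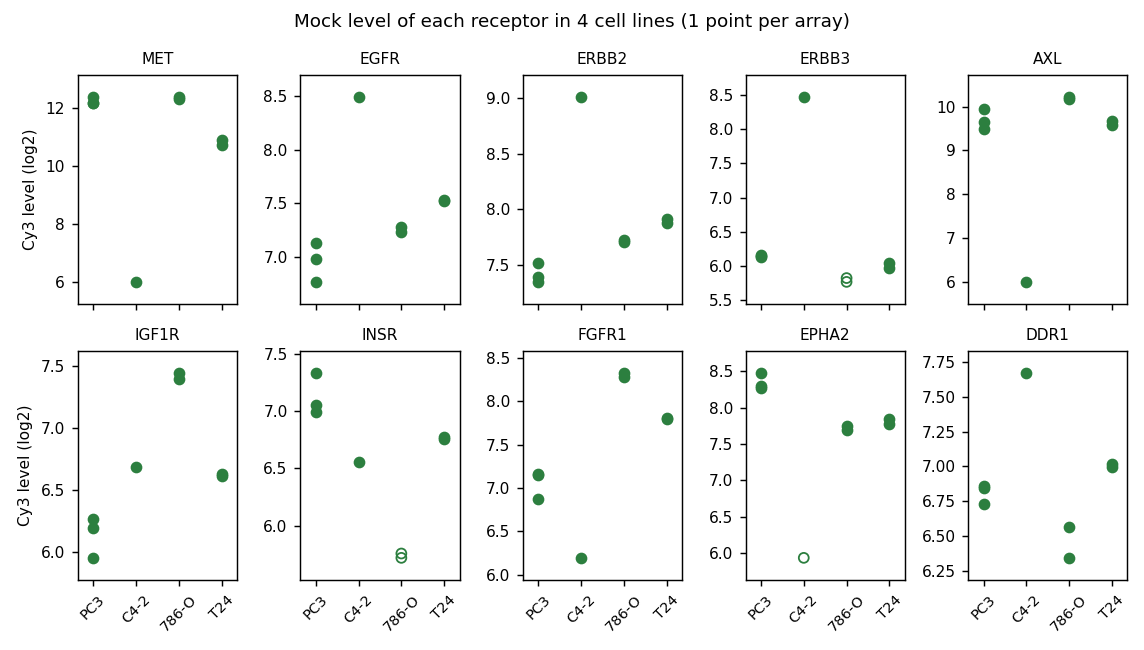
Mock level (log2 Cy3 signal after normalization between arrays) of each receptor, 1 point per array, in PC3 (3 arrays), C4-2 (1), 786-O (2) and T24 (2); each panel has its own axis and open points were not well above background. MET and AXL in C4-2 lie at 5.99, far below the other lines, whereas EGFR, ERBB2, ERBB3 and DDR1 have their highest value there.

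The 3 members of the epidermal growth factor receptor family were each highest in C4-2, and the order of the other lines differed among them. ERBB3 was 8.46 in C4-2 against 6.15 ± 0.02 (SD, n = 3) in PC3, 6.01 in T24 and 5.80 in 786-O, where it was not above background. The full-length ERBB3 probe also read highest in C4-2, with a raw mock signal of 105 against 25.4 to 38.3 on the other arrays. ERBB2 was 9.0 in C4-2, 7.90 in T24, 7.72 in 786-O and 7.42 ± 0.09 (SD, n = 3) in PC3. EGFR was 8.49 in C4-2, 7.53 in T24, 7.26 in 786-O and 6.96 ± 0.18 (SD, n = 3) in PC3. The collagen receptor DDR1 was also highest in C4-2, at 7.67, against 7.01 in T24, 6.81 ± 0.07 (SD, n = 3) in PC3 and 6.45 in 786-O. The lead of C4-2 over PC3 was 2.32 for ERBB3, 1.58 for ERBB2, 1.53 for EGFR and 0.86 for DDR1. Without normalization between arrays these were 1.55, 0.54, 0.56 and 0.03, so the size, and for DDR1 the lead itself, rests on the scaling. The order of 786-O over PC3 turned for both ERBB2 and EGFR, with PC3 above 786-O by 0.65 and 0.50 without that normalization.

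The receptors of the insulin family had different orders. IGF1R was highest in 786-O at 7.42, then 6.69 in C4-2, 6.62 in T24 and 6.14 ± 0.16 (SD, n = 3) in PC3. INSR was highest in PC3 at 7.12 ± 0.18 (SD, n = 3), then 6.77 in T24 and 6.56 in C4-2, and was not above background on either 786-O array, which put PC3 at least 2.48-fold higher than 786-O. Of the 30 gaps between lines next to each other in the order of a receptor, 16 were over 2.5 times the spread between PC3 mocks, 9 were between 1 and 2.5 times, and 5 were under it. Those 5 were 786-O and PC3 for MET, PC3 and T24 for ERBB3 and for AXL, C4-2 and T24 for IGF1R, and T24 and 786-O for EPHA2. The spread was read in PC3 alone, so a gap past it does not settle an order. Among the 16, the orders of 786-O over PC3 for AXL, 786-O over T24 for FGFR1 and C4-2 over T24 for DDR1 turned without normalization between arrays. For FGFR1 786-O and T24 were then 0.26 and 0.58 above PC3, and for DDR1 C4-2 and T24 were 0.03 and 0.04 above it.

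The genes whose mock levels over the 8 arrays followed that of MET most closely were RPTOR, a subunit of the mTORC1 kinase complex (Pearson r = 0.996), the actin-binding coronin CORO1C (0.990), COX2 of the mitochondrial genome (0.989), the annexin ANXA5 (0.988) and the tubulin TUBA1C (0.987), of 2429 genes. Each was lowest in C4-2, and since 8 arrays stand for 4 lines these values describe mainly the gap between C4-2 and the rest.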

How the data were processed

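Mock RNA (Cy3) and treated RNA (Cy5) of 8 groups were hybridised to 8 two-colour Agilent arrays, 1 per group, on 1 slide. The deposited files were made by the authors with Agilent Feature Extraction 11.5.1.1, per the file headers. They hold linear intensities of each spot and its local background, flags, GRCh37 coordinates and a log10 ratio. The deposited series table held the same log10 ratio, which was used as an alternative. Groups came from the treatment in the labels.

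From the deposited intensities, a log2 ratio of treated over mock was computed with limma 3.58.1 in R 4.3.3: normexp background correction with an offset of 50, then loess within each array. Control spots and outlier spots (126 to 181 an array) were left out, and spots of a probe were averaged. A probe counted as well above background when at least 0.5 of its kept spots were flagged so. Each gene was represented by its brightest probe (mean log2 over Cy3 and Cy5, all arrays). The offset draws dim ratios toward 0. For genes above background in 1 channel, a bound was set after loess and Aquantile normalization with the dim probe held at its own signal or at the lowest signal above background, whichever was larger, and it is open to dye bias. Mock levels are log2 Cy3 after normexp and quantile normalization. No test was possible with 1 array a group, and precision is limited by how few arrays there are. The 3 PC3 mocks gave the spread, and nothing in the labels says whether they were separate cultures, or whether the mock readings of 786-O or T24 were separate RNA. The ratio computation was tested on simulated data. The array's symbols of all 10 receptors matched the RefSeq table of GRCh38.p14, which also gave the miRNA sequences.

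The receptors and gene lists were chosen with earlier results of these data known. Named in the text are the 10 receptors, per list and array the 3 genes of largest size past 0.5 and above background in both channels, the 5 genes most like MET in ratio (SD at least 0.3) and in mock level (SD at least 0.5), and the tissue markers. Alternatives were other background corrections, median centring, the scanner software's ratio, the mean over probes, subtraction of the median over the other 7 arrays, other sizes for a call, filters on dim probes and, for mock levels, other normalizations and each PC3 mock left out. Values of some single genes in the marker and downstream kinase lists are not reported here.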

Additional observations from a re-analysis of the deposited data

How the results depend on the processing

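MET with miR-532-3p stayed the lowest receptor value under each background correction, the scanner software's ratio, median centring and subtraction of the median of the other arrays (−1.69 to −1.04). Of the 7 receptor values past 0.5 in size, all but MET with miR-140-5p kept their sign under every alternative. That value was 0.32 with median centring, where the median of all genes was 0.35. Of the 7, 4 kept sign and size with median centring, with the mean over probes and with subtraction of the other arrays' median. Median centring moved the median over the receptors to 0.65, 0.64 and 0.54 in PC3 (bisamide 24 h, bisamide 48 h, miR-125b-1-3p), 0.43 in C4-2, 0.24 in 786-O given miR-532-3p, and 0.26 and 0.60 in T24 given the 5p and 3p strands of miR-140. The number of receptor values below −0.5, 5 as computed first, was 9 with plain background subtraction and with an offset of 0, 8 by the scanner software's ratio and the deposited series table, and 2 with median centring and with the mean over probes; 1 was below −1.0 and 1 below −1.5. The number above 0.5, 2 at first, was 5, 5, 4 and 4 under the first 4 of these, 33 with median centring and 1 after subtraction of the other arrays' median, and 0 were above 1.0 or 1.5. The cause was not tested, except that fewer values pass a larger size by construction.

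For mock levels, the receptors lower in PC3 than in C4-2 by over 0.5 went from 5 to 3 without normalization between arrays. Those higher in PC3 than in 786-O went from 2 to 7 without that normalization and to 4 without background correction or with an offset of 0, and those lower went from 2 to 1 without it. Those higher in PC3 than in T24 went from 2 to 4 with an offset of 0, and those lower from 2 to 1 without normalization between arrays, to 4 with loess and Aquantile, without background correction and with an offset of 0, and to 0 with the mean over probes. With each PC3 mock left out in turn, the counts higher and lower in PC3 were 4 to 5 and 4 to 5 against C4-2, 2 to 2 and 2 to 3 against 786-O, and 1 to 2 and 2 to 4 against T24. The 1 is without the mock of the 48 h bisamide array and the 4 is without that of the miR-125b-1-3p array. All 18 mock differences past 0.5 kept their sign under each of these settings. No paired analysis was possible because there was only 1 sample in a group. Dim receptors (ERBB3 in all lines but C4-2, INSR in 786-O, MET, AXL and EPHA2 in C4-2) are limited by signal over background.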
